A study of Mus musculus with 52 samples.

Results

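The 58 genes described here are the chemokines and chemokine receptors of the mouse. They are the protein-coding genes whose symbol starts with Ccl, Cxcl, Ccr, Cxcr or Ackr followed by a digit, with Ccl21a not analysed here, out of 49585 genes in the quantification and 21885 protein-coding genes. They comprise 11 CC receptors, 6 CXC receptors, 4 atypical receptors, 12 homeostatic ligands, 16 inflammatory CC ligands, 2 interferon-inducible CXC ligands, 5 ELR CXC ligands that attract neutrophils, and 2 of no assigned role. Of these, 4 lie on unplaced scaffolds as near-identical copies of other genes, and their reads cannot be divided with certainty. At least 1 count was found for 53 members in some library, 37 reached 1 TPM (the share of a library's transcripts, corrected for length) in both libraries of at least 1 group, and 15 reached 10 TPM.

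Chemokines are small secreted proteins that direct the migration of leukocytes, progenitors and neurons by activating G protein-coupled receptors. In the blood-brain barrier (BBB), CXCL12 made by endothelial cells (ECs) is known to retain leukocytes in the perivascular space through CXCR4. The atypical receptors bind chemokines without activating G proteins: ACKR3 removes CXCL12 from the surroundings, ACKR1 carries inflammatory chemokines across venular endothelium, ACKR2 degrades inflammatory CC chemokines, and ACKR4 removes CCL19, CCL21 and CCL25.

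The study asked what beta-catenin signaling does in the vessels of circumventricular organs, which are permeable, and of the choroid plexus, compared with BBB vessels. RNA-seq was made from 24 libraries of GFP-positive (EC) and GFP-negative sorted cells of the cerebellum, anterior pituitary and posterior pituitary, and from 16 RiboTag libraries of cortex and choroid plexus, each tissue with an input (whole tissue RNA) and a bound fraction (RNA pulled down with ribosomes tagged in Cre-expressing cells). ATAC-seq, which maps open chromatin, was made from 12 libraries of GFP-positive cells. Every group had 2 libraries, so that both values are given throughout and n = 2 for each group.

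All mice were adult males. The sorted WT mice carried Tie2-GFP, which marks ECs by the promoter of Tie2, and no Cre. The sorted beta-catenin stabilized mice carried Tie2-GFP; Pdgfb-CreER; BcatEx3fl, in which 4-hydroxytamoxifen (4HT) lets Cre remove exon 3 from one allele of the beta-catenin gene Ctnnb1 in cells that use the Pdgfb promoter. The stabilized allele, the Cre and 4HT thus cannot be told apart in the sorted cells. The RiboTag mice were RiboTag; Pdgfb-CreER (WT) and RiboTag; Pdgfb-CreER; BcatEx3fl (stabilized), so that both carried the Cre, which also switches on the tagged ribosomes. Pituitaries and choroid plexi of several mice were pooled in each sample. The removal of 1 exon from 1 allele cannot be seen in counts summed over the gene. One library disagrees with itself: for stabilized anterior pituitary GFP-positive replicate 2 the tissue entry says posterior, while the title and source say anterior. Its 8 pituitary endocrine markers summed to 4052 CPM, near the 3212 CPM of replicate 1 and above the 321.4 and 755.7 CPM of the stabilized posterior libraries. The title was followed. Results that include this library are given without it for the call of Cxcl12, the counts and median over the members, and the genes of the pathway that are named.

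Library depth ranged from 12157485 to 37529274 assigned reads in the sorted cells (median 27638900) and from 6409013 to 21399125 in RiboTag (median 10036750). Summed over 10 endothelial markers, GFP-positive libraries held 7698 to 17957 CPM (counts scaled to library depth) and GFP-negative libraries 18.3 to 132.1 CPM. Bound libraries held 1322 to 4813 CPM of these markers and inputs 56.0 to 363.5 CPM. Genes that are noncoding or mitochondrial took between 43.9% and 85.9% of the TPM of a library. Levels are therefore compared between groups in CPM scaled by TMM, and TPM, which is per transcript length, is used to rank genes within a library and to describe how many members reach a level.

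The genes and regions that the results turn on are shown first. Each window is in the GRCm38.p6 assembly, 5′ to 3′ on the strand named, with matches to the TCF/LEF motif (ATCAAAG or TTCAAAG on either strand), through which beta-catenin acts, in capitals. The Cxcl12 window runs from 250 bases before to 50 bases after the annotated start, at chr6:117168285-117168584 on the plus strand, and the Ackr3 (chr1:90203730-90204029, plus strand) and Ccl3 (chr11:83649329-83649628, minus strand) windows are cut in the same way. The Ackr3 distal window is the central 300 bases of an open region at chr1:90126686-90127533 that appeared in stabilized pituitary ECs. Its centre lies at −76871 bases from the start of Ackr3, inside the neighbouring gene Iqca, and overlaps an Iqca exon, with the window itself at chr1:90126959-90127258.
Cxcl12 promoter: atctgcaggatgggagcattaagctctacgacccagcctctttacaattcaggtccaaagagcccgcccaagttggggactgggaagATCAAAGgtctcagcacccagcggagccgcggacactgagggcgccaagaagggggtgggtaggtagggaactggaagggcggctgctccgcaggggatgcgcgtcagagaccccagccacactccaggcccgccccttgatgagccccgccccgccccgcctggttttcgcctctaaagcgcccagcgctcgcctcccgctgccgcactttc
Ackr3 promoter: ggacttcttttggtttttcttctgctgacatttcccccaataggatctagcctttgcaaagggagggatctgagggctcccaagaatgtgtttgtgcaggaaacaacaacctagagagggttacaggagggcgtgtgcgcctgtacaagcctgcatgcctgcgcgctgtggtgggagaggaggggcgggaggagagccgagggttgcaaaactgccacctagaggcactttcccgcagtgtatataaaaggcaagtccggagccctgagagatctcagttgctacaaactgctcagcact
Ccl3 promoter: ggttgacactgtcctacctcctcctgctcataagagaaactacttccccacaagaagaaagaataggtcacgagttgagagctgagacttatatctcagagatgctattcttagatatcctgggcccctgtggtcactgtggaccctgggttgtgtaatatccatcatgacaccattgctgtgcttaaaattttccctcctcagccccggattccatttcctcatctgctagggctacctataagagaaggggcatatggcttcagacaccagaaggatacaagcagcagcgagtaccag
Ackr3 distal region: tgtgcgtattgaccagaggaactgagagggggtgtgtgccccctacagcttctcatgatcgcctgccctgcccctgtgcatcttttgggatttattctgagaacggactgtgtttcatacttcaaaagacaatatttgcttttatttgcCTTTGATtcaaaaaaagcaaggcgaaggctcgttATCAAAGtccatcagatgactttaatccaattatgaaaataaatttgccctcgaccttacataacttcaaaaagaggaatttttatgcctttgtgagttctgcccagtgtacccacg

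The Cxcl12 window held 1 match, the Ackr3 and Ccl3 promoter windows held 0, and the distal window held 2. Among 32817 RefSeq promoters of the same length, 8.65% held a match. Among the central 300 bases of 66239 open regions, 11.3% held at least 1 and 1.25% at least 2. Promoters were found in RefSeq for 40 members, with 47 starts, of which 7 (14.9%) held a TCF/LEF match. The same windows were searched for the motif of the transcription factor NF-kB. Of the 47, 12 (25.5%) held an NF-kB match, beside 8.46% of the RefSeq promoters. A match describes the letters and not a bound site.

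Cxcl12 was the most abundant member in ECs behind the BBB. The gene (ENSMUSG00000061353) lies at chr6:117168535-117181367 on the plus strand and encodes the ligand of CXCR4 and ACKR3. WT cerebellar ECs held 3050 and 2757 CPM, posterior pituitary ECs 762 and 711 CPM, and anterior pituitary ECs 1.39 and 7.68 CPM. Within the cerebellar EC libraries this was 489.7 and 345.9 TPM, 78.7% of the mean summed TPM of all 58 members. The anterior pituitary thus stood apart from both other tissues, with no overlap.

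In the edgeR fit of the 12 EC libraries, Cxcl12 was higher in WT cerebellar than anterior pituitary ECs by 9.32 on the log2 scale (SE 0.74, adjusted p = 9.09e-06). It was lower in anterior than posterior pituitary ECs by 7.35 (log2 −7.35, SE 0.68, adjusted p = 0.000151). The cerebellum and posterior pituitary differed by 1.97 (SE 0.53), which did not pass (edgeR adjusted p = 0.0599). Cxcl12 was the only member of the 34 tested to be called in these WT tissue comparisons, a call being an adjusted p under 0.05 over all genes and a change of at least 2-fold. Of all genes tested, 5.26% were called between cerebellum and anterior pituitary, 4.4% between cerebellum and posterior pituitary, and 0.994% between the pituitary lobes. The calls of Cxcl12 between the anterior pituitary and each other tissue held in each of 11 alternatives. Other markers also differed between these libraries. The 7 markers of mural cells, which wrap the vessels, summed to 3333 and 3072 CPM in cerebellar, 801.1 and 918 CPM in anterior and 567.3 and 551.1 CPM in posterior libraries, and 8 pituitary endocrine markers to 29.1 and 27.3, 5737 and 3268, and 2337 and 433.8 CPM in the same order. The 8 immediate early genes, which respond to cell dissociation, summed to 3092 and 356.6, 8908 and 11277, and 5511 and 2076 CPM. Their part in the Cxcl12 differences was not tested.

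Cxcl12 rose in stabilized anterior pituitary ECs, where the WT level was low. The libraries rose from 1.39 and 7.68 CPM to 28.4 and 38.4 CPM, from 300 to 1745 reads in all, a log2 change of 2.87 (SE 0.56). The edgeR adjusted p was 0.0498, just inside the threshold, and without the library whose tissue entries disagree the call was lost (adjusted p = 0.143). Leaving out each of the other 3 libraries in turn kept it, and the gene-length offset and the fit of these groups alone lost it (adjusted p up to 0.201). In these libraries the 6 fibroblast markers summed to 44.2 and 35.6 CPM in WT and 100.4 and 66.4 CPM in stabilized cells, and the 7 mural markers to 801.1 and 918 against 1089 and 1001 CPM, while GFP-negative cells of the WT lobe held 38.4 and 38.2 CPM of Cxcl12. Their part in the change was not tested. In posterior pituitary ECs Cxcl12 read 762 and 711 CPM in WT and 448 and 500.3 CPM in stabilized cells (log2 −0.66, SE 0.52, edgeR adjusted p = 0.595). In cerebellar ECs it read 1967 and 1460.0 CPM in stabilized cells (log2 −0.78, SE 0.52, edgeR adjusted p = 0.595). The difference between the responses of the 2 lobes was −3.53 (SE 0.76) and was not called (edgeR adjusted p = 0.134). No member of 34 was called in that test by edgeR, which called 0.128% of all genes, with 3 at an unadjusted p under 0.05 (9.09% of all genes) and 1 by DESeq2 (2.48%).

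Cxcl12 also rose in ribosome-bound RNA of the stabilized choroid plexus. In the bound RNA of WT choroid plexus Cxcl12 read 119 and 110.3 CPM, and in stabilized mice 1108 and 1012 CPM. This is a log2 change of 3.12 (SE 0.37, edgeR adjusted p = 0.00695). Cxcl12 was the single member called higher there out of 20 tested, while 0.852% of all genes were called. Leaving out either WT bound library removed the call (adjusted p up to 0.0824). In cortex, whose vessels have a BBB, the bound libraries held 546 and 266 CPM in WT and 449 and 483 CPM in stabilized mice, which overlap (log2 0.20, SE 0.34, edgeR adjusted p = 0.797).

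The difference between the responses of the choroid plexus and cortex was itself called, at 2.92 on the log2 scale (SE 0.50, edgeR adjusted p = 0.0243). Of all genes 2.15% were called in that test, and Cxcl12 was 1 of 20 members. The call was kept in 2 of 8 fits that each left out 1 library, with adjusted p up to 0.128. Bound RNA of WT choroid plexus held less Cxcl12 than that of cortex (log2 −1.89, SE 0.36, edgeR adjusted p = 0.00345), and the stabilized choroid plexus libraries lay above every cortical bound library. In whole choroid plexus (input) Cxcl12 read 41.8 and 48.1 CPM in WT and 107.6 and 92.8 CPM in stabilized mice (log2 1.12, SE 0.12, edgeR adjusted p = 0.0303). It was the only member of 17 called in the input, where 0.106% of all genes were called, and every fit that left out a library lost it. Endothelial markers also read higher in the stabilized bound libraries of choroid plexus (4813 and 4316 against 2527 and 3312 CPM for 10 genes summed, 1 of 10 called). They also read higher in stabilized cortex, at 4336 and 4391 against 2756 and 1322 CPM, where 5 oligodendrocyte markers summed to 707.1 and 871.3 against 1806 and 1973 CPM. The 6 markers of choroid plexus epithelium summed to 37821 and 38286 CPM in the WT bound libraries and 24822 and 21624 CPM in the stabilized ones, so that the bound RNA held more of them than of the endothelial markers. In the input, 7 mural markers summed to 214.8 and 227.6 CPM in WT and 527.3 and 376.8 CPM in stabilized mice. The 6 fibroblast markers summed to 401.4 and 431.5 against 647.4 and 557.2 CPM in the input, and to 201.8 and 189.5 against 244 and 381.7 CPM in bound RNA. The part of these cells in the Cxcl12 results was not tested. In bulk RNA a change in the number of cells and a change in RNA per cell cannot be told apart.

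**Figure D1:**
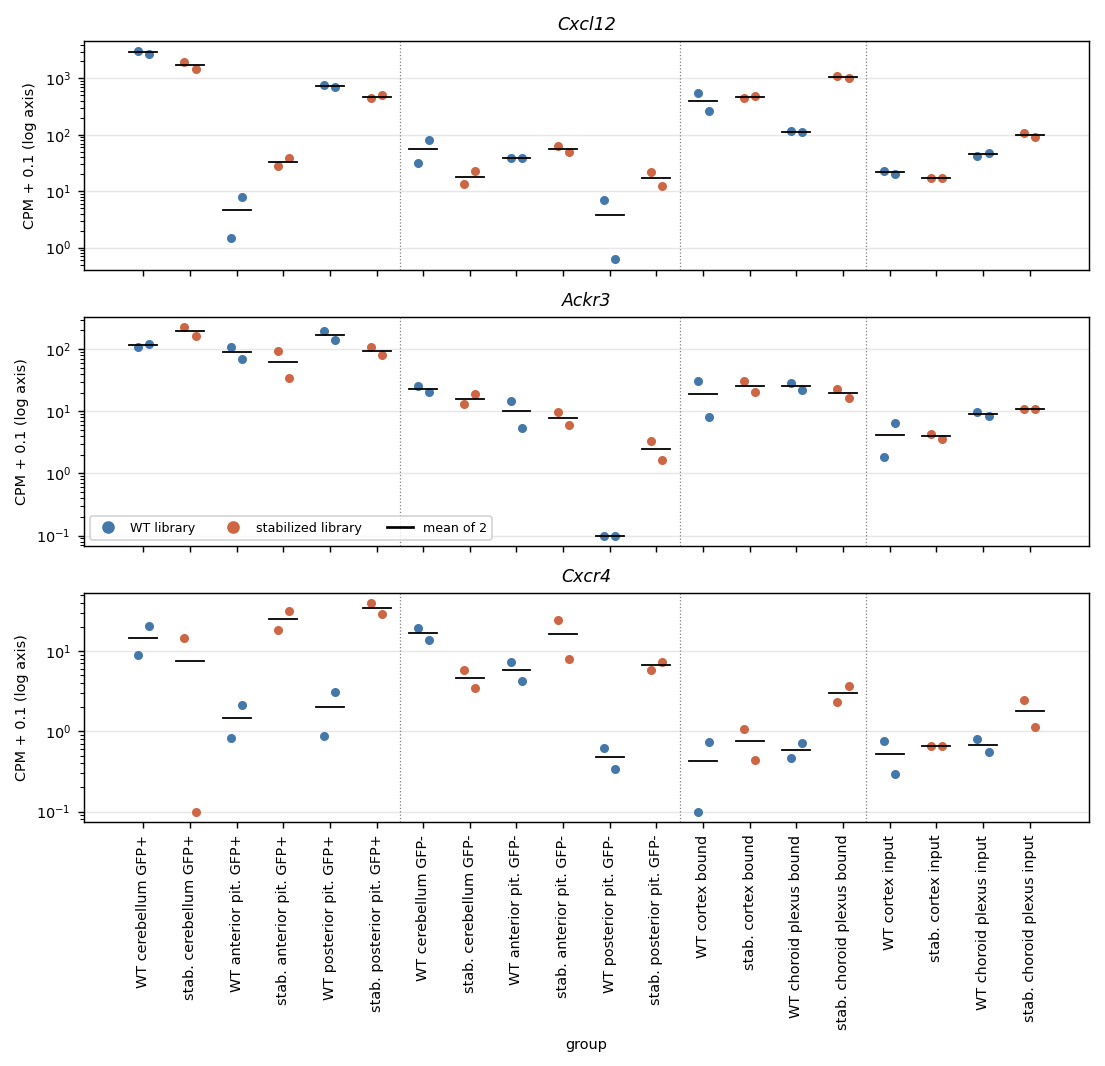
Levels of Cxcl12, Ackr3 and Cxcr4 in all 20 RNA groups, in CPM + 0.1 on a log axis, with 1 point for each library and a bar at the mean of 2. Among WT sorted ECs Cxcl12 spans from 1.39 CPM in WT anterior pituitary ECs to 3050 CPM in WT cerebellar ECs, and the stabilized choroid plexus bound libraries (1108 and 1012 CPM) stand above the WT ones (119 and 110.3 CPM).

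Cxcl12 also separated the sorted fractions within each tissue, though not in the same direction. In the fit of 24 sorted libraries it was higher in WT GFP-positive than GFP-negative cells of the cerebellum (log2 5.68, SE 0.90, edgeR adjusted p = 0.000357) and posterior pituitary (log2 7.62, SE 0.99, edgeR adjusted p = 3.07e-05). In the anterior pituitary it was lower in the GFP-positive cells (log2 −3.08, SE 0.81, edgeR adjusted p = 0.0164), where the GFP-negative cells held 38.4 and 38.2 CPM. That last call was kept in 1 of 4 fits that left out a library. Ribosome-bound RNA of cortex exceeded the input by 4.23 (SE 0.29, edgeR adjusted p = 1.19e-06), with inputs of 22.6 and 20.5 CPM. In choroid plexus the excess was 1.35 (SE 0.26, edgeR adjusted p = 0.00291), and an offset for gene length reduced it to 0.34 (adjusted p = 0.472).

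Ackr3, the scavenging receptor of CXCL12, was higher in GFP-positive than in GFP-negative cells of all 3 sorted tissues. The gene (ENSMUSG00000044337) lies at chr1:90203980-90216751 on the plus strand. WT ECs held 109.5 and 122.6 CPM in cerebellum, 110.3 and 69.1 CPM in anterior pituitary, and 195 and 139.7 CPM in posterior pituitary. The corresponding GFP-negative cells held 25.6 and 20.2 CPM, 14.4 and 5.36 CPM, and 0 and 0 CPM. No GFP-negative library reached the level of a GFP-positive library of its tissue. The 7 mural markers also summed higher in the GFP-positive libraries, at 3333 and 3072 against 698.6 and 510.2 CPM in cerebellum, 801.1 and 918 against 151.7 and 106.6 CPM in anterior pituitary, and 567.3 and 551.1 against 34.8 and 18.96 CPM in posterior pituitary. Their part in the Ackr3 and Cxcl12 differences between the fractions was not tested.

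Ackr3 was called higher in GFP-positive cells in each tissue. The log2 difference was 2.34 in cerebellum (SE 0.55, edgeR adjusted p = 0.00836) and 3.19 in anterior pituitary (SE 0.57, edgeR adjusted p = 0.00104). In posterior pituitary 8882 reads stood against 0, at least 3380-fold higher (edgeR adjusted p = 9.96e-08), with 0 taken as a floor of 3 counts over the group. The cerebellar call was lost in 1 of 10 alternatives (adjusted p up to 0.0795). On ribosomes Ackr3 was also called higher than in the cortical input (30.3 and 8.14 against 1.77 and 6.36 CPM, log2 2.24, SE 0.61, edgeR adjusted p = 0.0249), a call kept in 6 of 10 alternatives and lost with a replicate block (adjusted p = 0.0659).

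Ackr3 RNA was not called between stabilized and WT ECs in any tissue. Stabilized cerebellar ECs read 225 and 161.5 CPM, above both WT libraries (log2 0.72, SE 0.42, edgeR adjusted p = 0.555). Stabilized posterior pituitary ECs read 107.6 and 80.6 CPM, below both WT libraries (log2 −0.86, SE 0.42, edgeR adjusted p = 0.415). In the same libraries the 10 endothelial markers summed to 7698 and 9249 CPM, against 15489 and 17957 CPM in WT, and their part in the levels of Ackr3 and Cxcl12 was not tested. Anterior pituitary libraries, 91.7 and 34.5 CPM, overlapped those of WT (log2 −0.52, SE 0.42, edgeR adjusted p = 0.822). Bound RNA of choroid plexus read 28.0 and 22.3 CPM in WT and 23.1 and 16.4 CPM in stabilized mice (log2 −0.44, edgeR adjusted p = 0.809).

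The peak lists around Ackr3 differed between stabilized and WT pituitary ECs. A peak here is a deposited region enriched more than 2-fold whose −log10 q exceeds 2. The lists hold no read counts, so that no test was made. The region shown above had fold enrichments of 12.24 and 13.19 in WT and 17.2 and 15.07 in stabilized cerebellar ECs. In the pituitary it was in neither WT library of either lobe, but in both stabilized anterior libraries (7.559 and 8.835) and both stabilized posterior libraries (8.761 and 8.095). The lists of the posterior lobe held 21050 and 20634 peaks in WT and 28926 and 38583 in stabilized ECs, and those of the anterior lobe 36860 and 45040 in WT and 40071 and 42621 in stabilized ECs. The region at the start of Ackr3 was present in all 12 libraries, with fold enrichments from 3.431 to 9.407. Of 11 regions within 100000 bases of the gene, 2 others were present in both stabilized libraries and neither WT library of a tissue. One lay at −86575 bases in anterior pituitary ECs (4.88 and 5.98), and the other at 75397 bases downstream in cerebellar ECs (4.42 and 3.90). The reverse held for 1 region, at −1452 bases, which was in both WT posterior libraries (4.116 and 4.153) and in neither stabilized one.

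**Figure D2:**
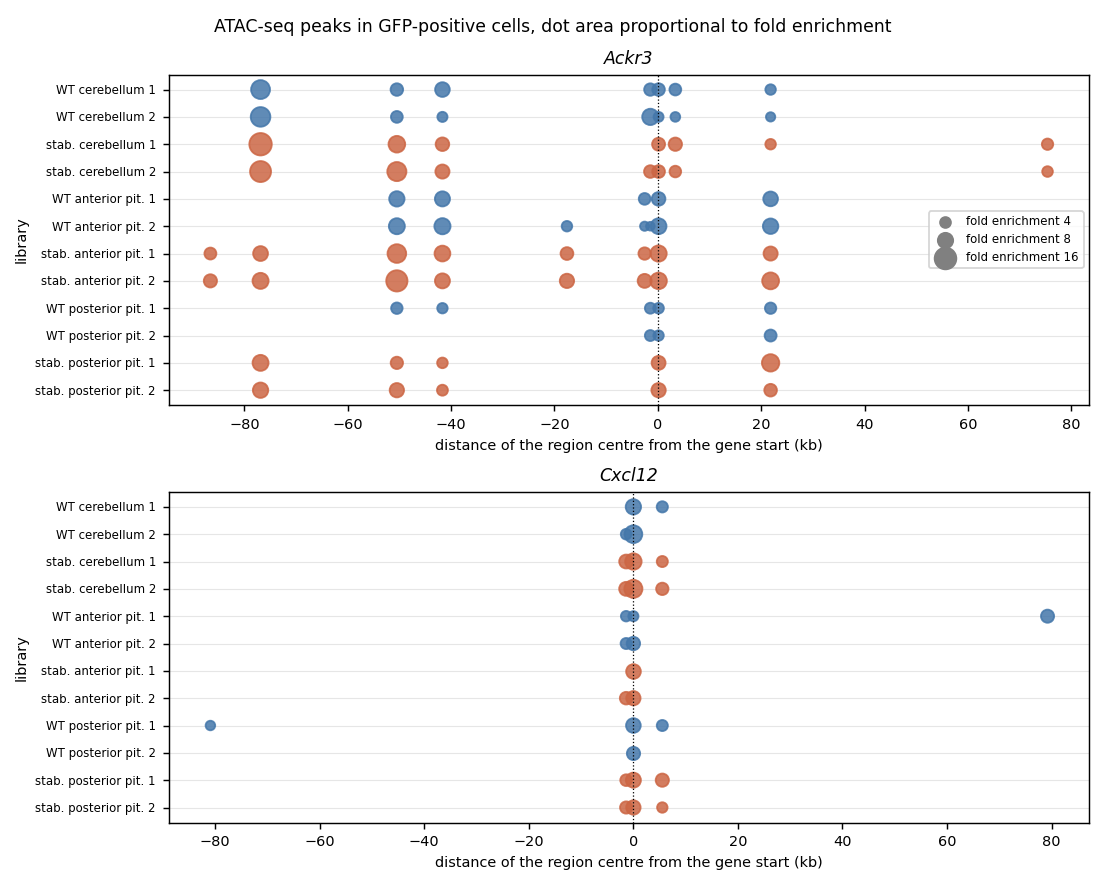
ATAC peaks of GFP-positive cells around the starts of Ackr3 and Cxcl12 in 12 libraries, by distance from the start in kb along the gene's strand, with dot area proportional to the fold enrichment in the deposited lists. The region at −76871 bases from the Ackr3 start is present in all 4 cerebellar libraries and in stabilized, not WT, libraries of both pituitary lobes.

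The start of Cxcl12 was open in all 12 libraries, including those in which its RNA was low. WT anterior pituitary ECs had fold enrichments of 3.529 and 6.197 there, stabilized ones 7.42 and 7.02, and WT cerebellar ECs 8.08 and 10.86. Across the 54 members on chromosomes, between 7 (12.96%) and 12 (22.2%) had a peak within 500 bases of a start in both libraries of a group. Among 21804 protein-coding genes the share was 50.2%, 53.4%, 57.3%, 57.7%, 50.5% and 53.8% in WT and stabilized cerebellum, anterior pituitary and posterior pituitary, in that order. Cxcl12, Ackr3, Cxcr4, Cxcl1, Cxcl10, Ccl25 and Ccl27a had such a peak in every library. Cxcl5, which attracts neutrophils, had one in the 4 anterior pituitary libraries alone (5.20 to 7.68), while its RNA read 0 CPM in all 12 GFP-positive libraries.

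Cxcr4, the signaling receptor of CXCL12 on leukocytes and growing vessels, was low in WT pituitary ECs. It read 0.724 and 2.04 CPM in the anterior and 0.779 and 2.99 CPM in the posterior lobe, against 18.5 and 31.4 and against 39.1 and 28.9 CPM in stabilized cells. Neither difference was called (log2 4.16, edgeR adjusted p = 0.632, and log2 4.16, adjusted p = 0.302), although the libraries did not overlap. Cerebellar ECs varied widely, with 8.78 and 20.5 CPM in WT and 14.6 and 0 CPM in stabilized cells. All 8 bound libraries held at most 3.53 CPM.

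The other atypical receptors were sparse. Ackr1 (chr1:173331886-173333750, minus strand) read 5.27 and 20.3 CPM in WT and 0 and 3.96 CPM in stabilized cerebellar ECs, and at most 2.42 CPM in pituitary ECs. The pituitary libraries of stabilized mice lay above those of WT in both lobes, at low counts. In choroid plexus its bound RNA read 0.24 and 0.49 CPM in WT and 3.38 and 7.73 CPM in stabilized mice, without overlap but without a call (log2 3.81, SE 0.95, edgeR adjusted p = 0.116). It was called lower in WT choroid plexus than in cortex on ribosomes (log2 −4.02, SE 0.95, edgeR adjusted p = 0.0107), a call lost without WT choroid plexus bound replicate 1 (adjusted p = 0.0729). The cortical input held 15.3 and 7.53 CPM, above the bound RNA, 6.69 and 5.10 CPM. A peak at the start of Ackr1 was found in both stabilized cerebellar libraries (4.85 and 5.94) and in neither WT one, opposite in direction to its RNA there. It was also in stabilized anterior replicate 1 (4.88) and stabilized posterior replicate 2 (2.68), and in no WT pituitary library. The cerebellar lists held 26394 and 24020 peaks in WT and 33514 and 31669 in stabilized ECs. The transcription unit of Ackr1 overlaps that of Cadm3 in the annotation, and reads and peaks in the overlap cannot be told apart by gene.

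Among the RiboTag libraries Ackr4 was found mainly in choroid plexus. The input held 26.95 and 28.24 CPM, and bound RNA 10.46 and 10.72 CPM in WT, so that it was not higher in the bound fraction. Against the WT cortical bound libraries, both at 0, it was at least 140.6-fold higher (174 reads against 0, edgeR adjusted p = 0.00107). Sorted ECs held at most 1.40 CPM in any library, and GFP-negative cells at most 3.99 CPM. Ackr2 reached 17.8 CPM in 1 WT cerebellar EC library and 1.63 CPM in the other. Corrected for length, Ackr2 read 3.56 and 5.37 TPM in these libraries in the same order, so that the measures rank them differently. The stabilized cerebellar libraries held 0 of its reads against 542 (edgeR adjusted p = 0.379), and all RiboTag libraries held at most 1.60 CPM.

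2 inflammatory CC ligands, Ccl3 and Ccl4, rose in stabilized posterior pituitary ECs. Ccl3 (chr11:83647844-83649355, minus strand) and Ccl4 (chr11:83662584-83664683, plus strand) attract monocytes and T cells. Ccl3 read 0 and 0 CPM in WT and 29.3 and 31.4 CPM in stabilized cells, 1275 reads against 0, at least 510.8-fold higher (edgeR adjusted p = 0.0199). Ccl4 read 0 and 0 CPM in WT and 36.9 and 18.7 CPM in stabilized cells, 1155 reads against 0, at least 462.7-fold higher (edgeR adjusted p = 0.0243). They were the 2 members called of 34 tested, beside 1.25% of all genes called higher and 0.541% lower. Each kept its call in 8 of 11 alternatives, but in 2 of 5 fits that left out a library, with adjusted p up to 0.115 for Ccl3 and 0.235 for Ccl4.

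The anterior pituitary libraries showed the same ligands without a call. Ccl3 read 0.058 and 0 CPM in WT and 21.5 and 20.2 CPM in stabilized ECs, a count ratio of 704.1 (95% counting interval 194.5 to 5821, edgeR adjusted p = 0.0663). Ccl4 read 0 and 0 CPM in WT and 14.4 and 9.51 CPM in stabilized ECs, at least 273.7-fold higher (edgeR adjusted p = 0.0607). In the anterior lobe Cxcl12 was the 1 member called of 34, beside 0.441% of all genes called higher and 0.0167% lower. Within the stabilized anterior libraries Ccl3 led the members at 48.7 and 33.5 TPM, followed by Cxcl2 at 24.1 and 28.4 TPM and Ccl4 at 32.7 and 16.6 TPM.

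Ccr2 and other ligands followed the same pattern of levels and were not called. Ccr2, the receptor of CCL2 on monocytes, read 0 in all 4 WT pituitary EC libraries. With stabilization it read 7.17 and 11.75 CPM in the anterior lobe, and the posterior lobe held 24.1 and 13.4 CPM (edgeR adjusted p = 0.182 and 0.0749). Cxcl2, which attracts neutrophils, read 13.85 and 15.42 CPM in stabilized posterior ECs against 0 and 0 (edgeR adjusted p = 0.109).

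Cxcl16, which is made as a membrane-bound ligand of CXCR6, read 44.7 and 51.0 CPM in stabilized anterior pituitary ECs against 1.999 and 3.567 CPM in WT (log2 4.09, edgeR adjusted p = 0.373). For the posterior lobe its level is given in TPM, at 18.2 and 0.780 TPM in WT and 20.7 and 12.2 TPM in stabilized ECs. The noncoding and mitochondrial share of TPM was higher in the stabilized libraries of that lobe. These TPM therefore give no size of a change between the groups. Ccl6, another monocyte-attracting ligand, read 9.02 and 10.8 CPM in stabilized posterior ECs against 0.18 and 0 CPM (edgeR adjusted p = 0.222). The interferon-inducible Cxcl10 read 16.4 and 14.2 CPM against 0.839 and 0.0586 CPM in the posterior lobe (log2 5.00, edgeR adjusted p = 0.157). In the anterior lobe Cxcl10 was already 12.2 and 13.5 CPM in WT. Cxcl1 lay the other way, at 41.1 and 41.0 CPM in WT and 13.02 and 23.0 CPM in stabilized anterior ECs, without a call. It led the WT anterior lobe with 45.4 and 53.3 TPM, 40.4% of the members' sum.

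Counting the members that passed the filter on low counts, both stabilized libraries lay above both WT libraries for 19 of 34 in the anterior and 19 of 34 in the posterior lobe. The same was true of 27.6% and 25% of all genes. Both lay below for 5 and 4 members (16.9% and 17.5% of all genes). The median log2 change was 4.39 over the tested members in the anterior and 3.86 in the posterior lobe, against 0.06 and 0.01 over all genes. Members that passed only through the stabilized libraries had to lie above WT, so that these counts and medians only describe the libraries. Without the anterior library whose tissue entries disagree, the remaining stabilized library lay above both WT libraries for 20 of 34 members and below both for 5 (37.4% and 24% of all genes), and the median was 3.19 (0.01 over all genes). DESeq2, which called 2.79% and 6.61% of all genes in the anterior and posterior lobe, called 6 members in the anterior lobe (Ccr2, Cxcl12, Cxcl16, Ccl3, Ccl4 and Ccl6) and 8 in the posterior lobe (among them Ccr2, Cxcr4, Ccl3, Ccl4, Ccl6, Cxcl10 and Cxcl2), all higher.

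Microglial and macrophage genes moved with these members in the same libraries. The summed level of 10 microglial markers in anterior pituitary ECs was 48.8 and 32.6 CPM in WT and 284.5 and 596.7 CPM in stabilized libraries. In the posterior lobe it was 68.8 and 58.4 CPM in WT and 764.3 and 560.4 CPM in stabilized libraries. Of the 10 genes, 9 read higher in each lobe, with 1 called in the anterior and 3 in the posterior lobe. Csf1r, the receptor for CSF1 on macrophages, read 1.83 and 0.03 CPM in WT and 70.1 and 162.7 CPM in stabilized anterior ECs, and Tmem119, which marks microglia, read 0 in both WT libraries and 7.31 and 12.7 CPM in the stabilized ones. In the posterior lobe Tmem119 read 12.7 and 12.3 CPM in stabilized libraries and 0 and 0.0586 CPM in WT.

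The sum of 8 markers of border and tissue macrophages went from 125.3 and 140.9 CPM to 180.9 and 198.8 CPM in the anterior lobe, and from 10.5 and 12.0 CPM to 151.4 and 74.8 CPM in the posterior lobe. The part of these cells in the chemokine results was not tested. The 8 immediate early genes summed to 8908 and 11277 CPM in WT and 2352 and 1841 CPM in stabilized anterior ECs. In posterior ECs these genes summed to 5511 and 2076 CPM in WT and 975.7 and 876.5 CPM in stabilized libraries. Their part in the levels of the members, among them Cxcl1, was not tested.

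**Figure D3:**
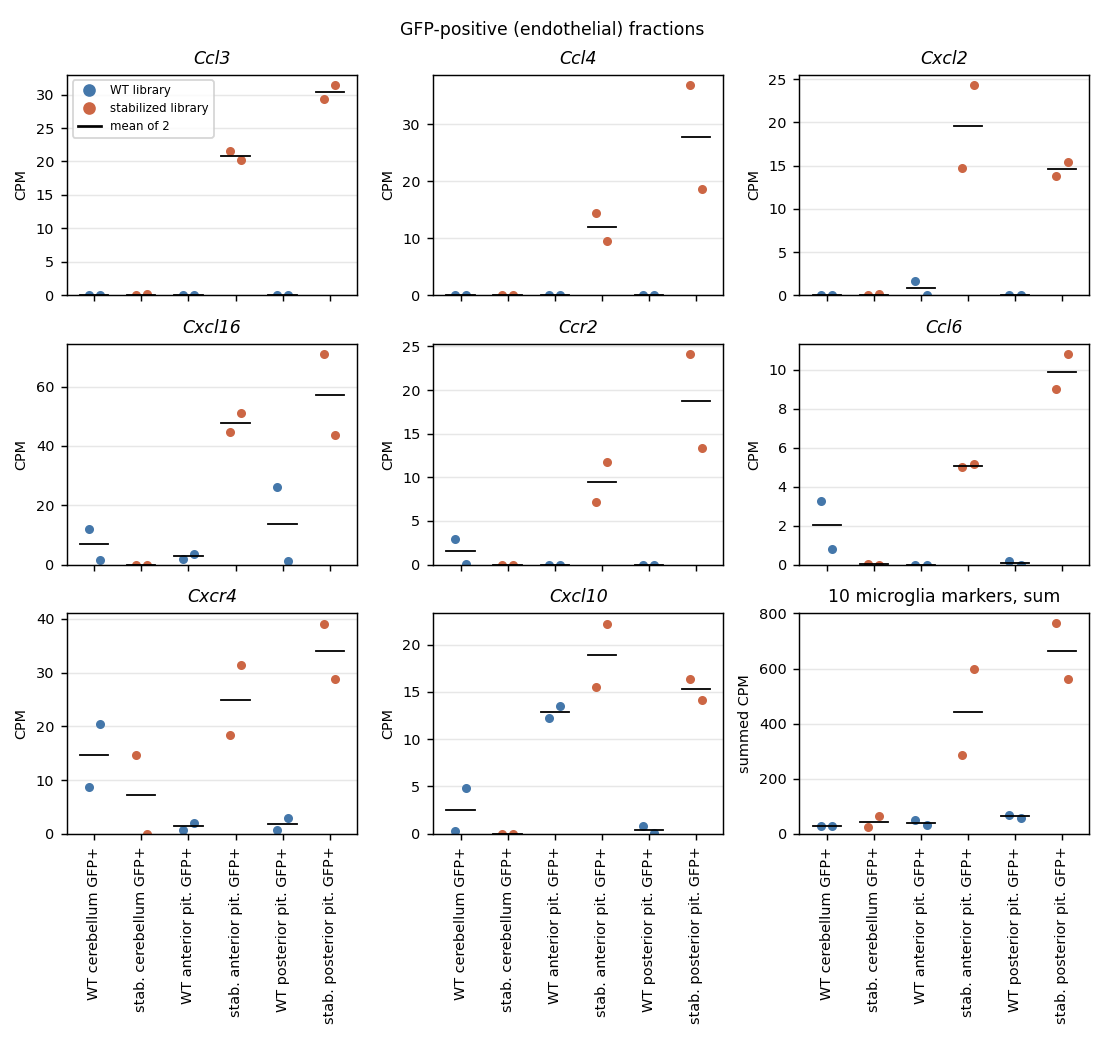
Levels of 8 members and the summed level of 10 microglial markers in the 6 groups of GFP-positive cells, in CPM, with 1 point for each library and a bar at the mean of 2. Ccl3, Ccl4 and Ccr2 read below 1 CPM in all 4 WT pituitary libraries and between 7.17 and 36.9 CPM in the stabilized ones, and the marker sum is higher in the same libraries.

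In cerebellar ECs no member was called in the edgeR test, which called 0.648% of all genes. At an unadjusted p under 0.05 were 6 members, beside 9.77% of all genes. DESeq2 called 5 (Ccr2, Ackr2, Cxcl16, Ccl6 and Cxcl10), each lower in stabilized cells, beside 4.34% of all genes. Both stabilized libraries lay below both WT libraries for 11 of 34 tested members (21.8% of all genes) and above for 1 (13.4%). A member that passed the filter only through the WT libraries had to lie below, so that these counts only describe the libraries. Cxcl16 read 12.1 and 1.44 CPM in WT and 0 and 0 CPM in stabilized cells (472 reads against 0, edgeR adjusted p = 0.0616), and Cxcl10 read 0.280 and 4.79 CPM and 0 and 0 CPM (edgeR adjusted p = 0.116). The WT libraries differed widely from each other for both. They also differed in the immediate early genes, at 3092 and 356.6 CPM, against 237.6 and 205.3 CPM in stabilized cells. Microglial markers were low in all 4 libraries (28.7, 29.8, 23.4 and 63.2 CPM), with 4 of 10 at 0 in both groups. The 6 fibroblast markers summed to 44.4 and 55.6 CPM in WT and 6.07 and 0.757 CPM in stabilized cells, and the 7 mural markers to 3333 and 3072 against 2330 and 2184 CPM. The part of these genes was not tested.

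Cxcl14, a homeostatic ligand, read 179.7 and 62.8 CPM in WT GFP-negative cells of the cerebellum and 0.0561 and 0.663 CPM in ECs (log2 −8.42, SE 1.53, edgeR adjusted p = 0.00132). Ccl2, Ccl3 and Ccl4 were also lower in cerebellar ECs, with 0 against 447 reads (at least 150.1-fold lower), 2 against 1109 (count ratio 558.5, interval 154.2 to 4617) and 1 against 399 (401.8, interval 71.7 to 15911). Microglial markers summed to 327.7 and 649.6 CPM in these GFP-negative libraries and 28.7 and 29.8 CPM in the ECs, and 8 border and tissue macrophage markers to 103.8 and 180.1 against 4.91 and 1.55 CPM. Their part in these differences was not tested. Of 46 members tested, 2 were called higher in cerebellar ECs (Ackr3 and Cxcl12; 4.46% of all genes) and 4 lower (6.89%). In the anterior pituitary 1 was called higher (Ackr3, beside 5.46% of all genes) and 3 lower (Cxcl12, Ccl3 and Ccl4, beside 5.87%). In the posterior pituitary 2 were called higher (Ackr3 and Cxcl12, beside 7.07% of all genes), while 0 members were called lower (7.45%). The calls of Ccl2, Ccl3 and Ccl4 were lost in every fit that left out a library of their groups, while that of Cxcl14 held.

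Within GFP-negative cells 1 member was called with stabilization. Cxcl1, which attracts neutrophils, read 7.99 and 2.82 CPM in WT cerebellum and 0 and 0 CPM in stabilized cerebellum (348 reads against 0, at least 51.56-fold lower, edgeR adjusted p = 0.0440), beside 0.76% of all genes. The call was lost in each of 4 fits that left out a library. It was the only one called of 44 members tested. Between the same libraries the 8 immediate early genes summed to 853 and 425.1 CPM in WT and 117.9 and 108.2 CPM in stabilized cells, 8 border and tissue macrophage markers to 103.8 and 180.1 against 34.7 and 22.2 CPM, and 6 neuronal markers to 1156 and 1337 against 3260 and 5469 CPM. Markers of choroid plexus epithelium set 1 library apart, with 8.95 and 7854 CPM in WT and 2.92 and 73.5 CPM in stabilized cells. Their part in the Cxcl1 result was not tested. In the anterior and posterior pituitary no member was called by edgeR, beside 0.0408% and 0.133% of all genes. At an unadjusted p under 0.05 were 6 and 14 members, beside 5.51% and 9.94% of all genes, and DESeq2 called 3 and 8, beside 1.46% and 4.18%. Ccl5, which attracts T cells, read 1.27 and 3.29 CPM in WT and 16.8 and 9.76 CPM in stabilized anterior GFP-negative cells. In the same libraries 8 lymphocyte markers summed to 5.01 and 8.09 CPM in WT and 46.7 and 16.96 CPM in stabilized cells, and 6 markers of neutrophils and monocytes to 10.6 and 12.75 CPM and 42.3 and 34.7 CPM. Ackr3 in the posterior lobe went from 0 and 0 to 3.26 and 1.52 CPM (edgeR adjusted p = 0.0528), where mural markers summed to 34.8 and 18.96 CPM in WT and 335.9 and 134.8 CPM in stabilized cells. The part of these cells was not tested. Both stabilized libraries lay above both WT libraries for 18 of 44 members in the anterior lobe (22.8% of all genes) and 21 in the posterior lobe (25.8%), and below for 0 (17.5%) and 4 (16.5%). As in ECs, a member that passed only through the stabilized libraries had to lie above. The 6 fibroblast markers summed to 425.6 and 423.8 CPM in WT and 830.3 and 662.3 CPM in stabilized anterior cells, and to 322.4 and 263.9 against 1095 and 656.7 CPM in posterior ones, and their part was not tested.

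Bound RNA of WT cortex held more Ccr6, Ccl6, Cxcl16, Cxcl12 and Ackr3 than the input. Ccr6 (chr17:8236043-8257141, plus strand), the receptor of CCL20, read 10.8 and 7.13 CPM bound and 0.455 and 0.440 CPM in the input (log2 4.29, SE 1.22, edgeR adjusted p = 0.0340). Ccl6 read 8.73 and 9.01 CPM bound and 0 and 0.78 CPM in the input (log2 4.46, SE 1.18, edgeR adjusted p = 0.0221), and Cxcl16 15.8 and 3.22 against 1.41 and 1.08 CPM (log2 2.92, SE 0.60, edgeR adjusted p = 0.00526). Ccl27a, a homeostatic ligand known from skin, was the single member called lower, at 5.14 and 9.98 CPM bound and 27.0 and 15.4 CPM in the input (log2 −1.48, SE 0.44, edgeR adjusted p = 0.0380). This call was kept in 3 of 10 alternatives (log2 −2.04 to −0.87, adjusted p up to 0.401) and was lost with a replicate block (adjusted p = 0.0584). One scaffold copy of Ccl27 read 25.5 and 3.52 TPM bound and 20.1 and 0 TPM in the input, and the other 0 and 0 against 2.82 and 2.09 TPM. Reads cannot be divided with certainty between Ccl27a and these copies. The call of Ccr6 was lost in 3 of 4 fits that left out a library (adjusted p up to 0.178), and those of Ccl6 and Cxcl16 each in 2 of 10 alternatives (adjusted p up to 0.0903 and 0.0879).

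In all, 6 of 29 members were called higher on cortical ribosomes (7.46% of all genes) and 1 lower (4.18%). The 10 microglial markers summed to 4770 and 3692 CPM in the bound libraries and 203.4 and 196.8 CPM in the input, above the 2756 and 1322 CPM of the endothelial markers in the same bound libraries, and 10 of 10 were called higher, so that they were enriched with Ccr6 and Ccl6. Their part in these results was not tested. In choroid plexus Cxcl12 was the 1 member of 29 called, with 15.3% of all genes called.

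Between the WT bound libraries, choroid plexus lay below cortex for Ccr6 (0 against 350 reads, at least 48.12-fold lower, edgeR adjusted p = 0.00689). Cxcl14 also lay lower, with 10 and 1 reads, against 21.5 and 25.6 CPM in cortex (log2 −5.15, SE 0.99, edgeR adjusted p = 0.00396). Ackr1 and Cxcl12 were called lower too. In all, 5 of 20 members were called lower (15.8% of all genes) and 1 higher (Ackr4, 13.9%). The 10 microglial markers were also called lower, 10 of 10, at 329.6 and 441.3 CPM in choroid plexus. The 6 neuronal markers summed to 2409 and 3837 CPM in cortex and 160.3 and 101.2 CPM in choroid plexus, and 5 oligodendrocyte markers to 1806 and 1973 against 103.8 and 123.3 CPM. The part of these cells was not tested. The calls of Ccr6, Ackr4, Cxcl12 and Cxcl14 held in each of 10 alternatives.

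In cortex no member was called between stabilized and WT bound RNA by edgeR, although 6.32% of all genes were. At an unadjusted p under 0.05 were 2 of 20 (22.7% of all genes), and DESeq2 called 1 (10.9%). In the cortical input no member of 17 was called by edgeR, which called 11.8% of all genes, with 4 at an unadjusted p under 0.05 (38.2% of all genes) and 1 by DESeq2 (12.7%).

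**Figure D4:**
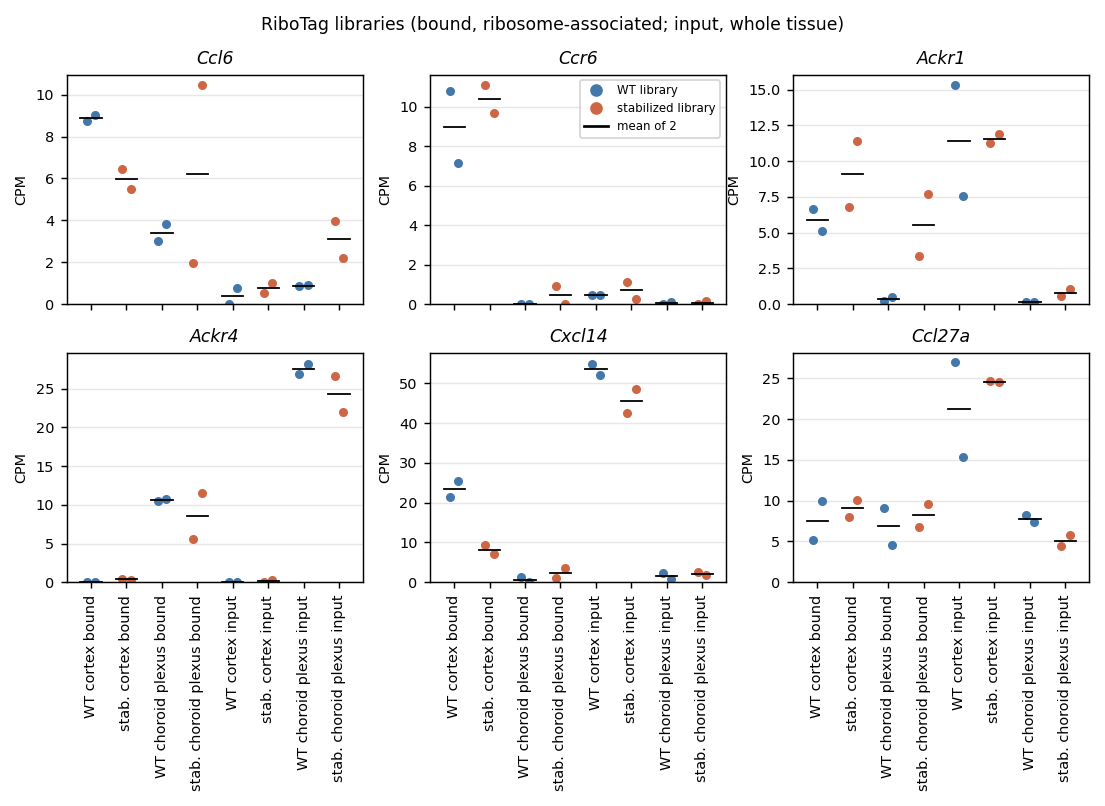
Levels of Ccl6, Ccr6, Ackr1, Ackr4, Cxcl14 and Ccl27a in the 8 RiboTag groups, in CPM, with 1 point for each library and a bar at the mean of 2. Ccr6 stands highest in the cortical bound libraries, Ackr4 in the choroid plexus input (26.95 and 28.24 CPM in WT), and Cxcl14 in the cortical input.

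Genes of the pathway outside the symbol rule were looked at as lists, beside the 0.441% and 1.25% of all genes called higher in anterior and posterior pituitary ECs and the 0.648% called in cerebellar ECs. Among 9 tested of 10 other chemokine genes, Gpr182, an endothelial receptor that binds chemokines, was called lower in stabilized cerebellar ECs, at 17.6 and 11.3 CPM in WT and 1.27 and 0.801 CPM in stabilized cells (log2 −3.80, SE 0.37, edgeR adjusted p = 0.000326). None of the 9 was called in either pituitary lobe, where Gpr182 read between 54.1 and 125.2 CPM in all 8 EC libraries. Of 14 genes of NF-kB and cytokine input, Il1b, which encodes interleukin 1 beta, and Vcam1, a leukocyte adhesion molecule, were called higher in both lobes. Il1b read at most 0.0305 CPM in WT pituitary ECs, 119.3 and 229.4 CPM in the stabilized anterior lobe (edgeR adjusted p = 2.68e-05), and 126.1 and 111.3 CPM in the stabilized posterior lobe (edgeR adjusted p = 2.9e-05). Without the library whose entries disagree, Il1b, Vcam1 and Rgs1 kept their calls in the anterior lobe (edgeR adjusted p = 5.56e-05, 4.97e-06 and 0.0149).

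Vcam1 went from 0 and 0.0305 CPM to 21.3 and 51.8 CPM in the anterior lobe, while posterior ECs went from 17.6 and 16.1 CPM to 98.9 and 97.4 CPM (log2 2.52, SE 0.42, edgeR adjusted p = 0.00993). Since the WT anterior level rests on about 1 read, the folds of the 2 lobes are not compared. Of 17 receptor signaling genes, Rgs1, which ends G protein signals in leukocytes, was the 1 called higher in each lobe, from 0 in all 4 WT libraries to between 18.97 and 54.98 CPM. Of 7 interferon response genes 1, Ifit1, was called higher in posterior ECs (log2 4.01, SE 0.85, edgeR adjusted p = 0.0364). The microglial marker sums given above moved with these genes too.

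**Figure D5:**
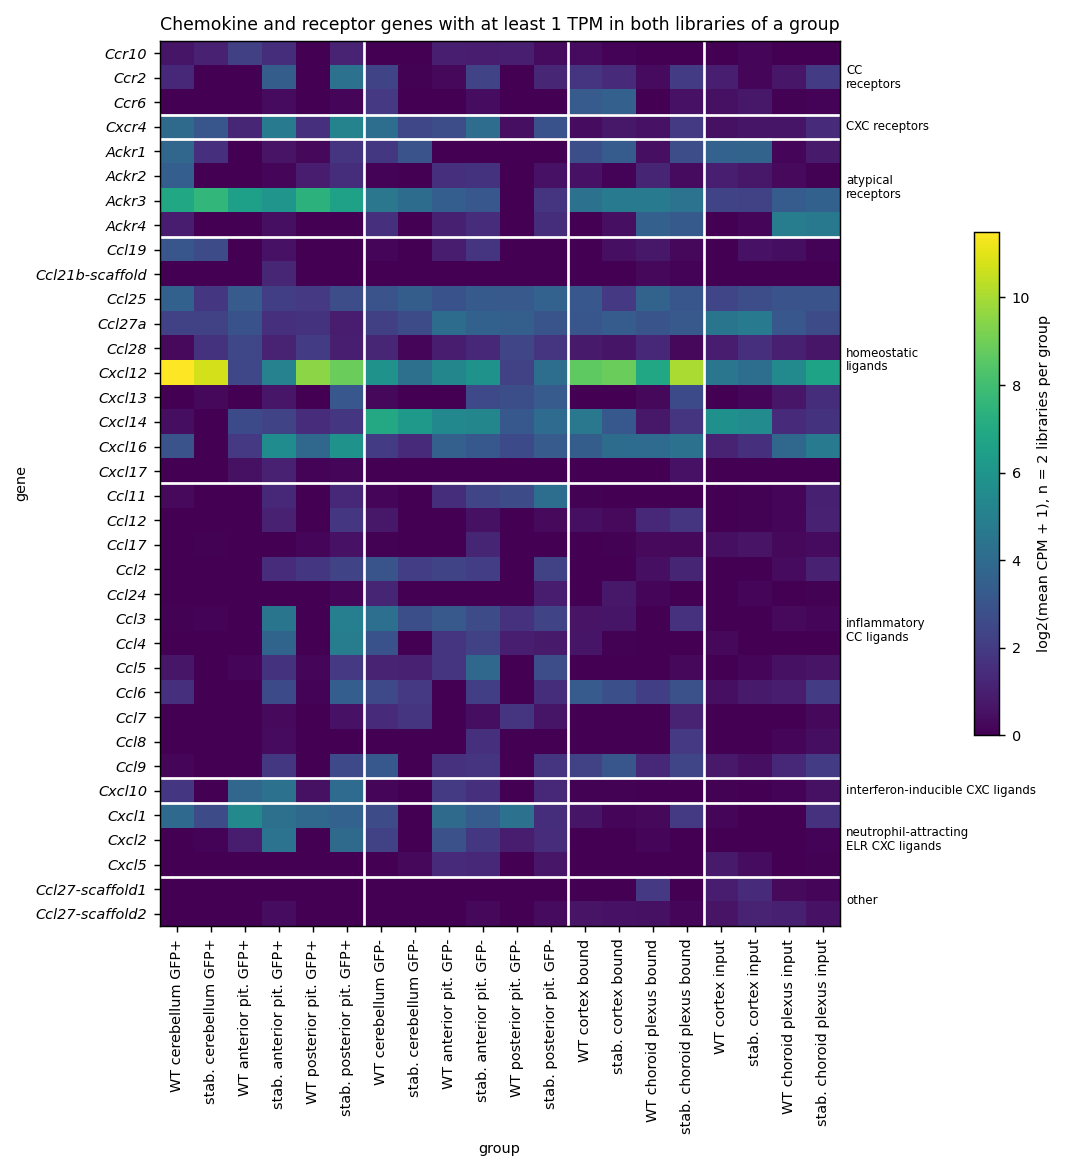
Mean level of members that reach 1 TPM in both libraries of a group, as log2(CPM + 1), in 20 RNA groups, with members ordered by role and groups by tissue and fraction. Cxcl12 stands out in cerebellar and posterior pituitary ECs, and more members are above 0 in stabilized than in WT pituitary ECs.

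The number of members at 1 TPM or more in both libraries gives the breadth of the family in each group. In ECs of the cerebellum it was 11 in WT and 3 in stabilized mice. In the anterior lobe it was 9 and 21 (23 in the stabilized library whose entries agree), and for the posterior lobe 5 and 19. In stabilized posterior ECs Cxcl12 read 43.3 and 51.7 TPM, first in 1 library and behind Ccl4 (48.0 TPM) in the other, and made up 18.2% of the members' sum, against 58.8% in WT. On ribosomes of the choroid plexus its share was 19.1% in WT and 63.5% in stabilized mice. Both measures depend on the rest of each library and are given as a description. The noncoding and mitochondrial share of TPM itself went from 43.9% and 58.6% in WT to 70.3% and 71.9% in posterior ECs with stabilization, and between 55.3% and 65.5% in the other EC libraries. Its part in these numbers was not tested.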

How the data were processed

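RNA-seq was made from sorted GFP-positive and GFP-negative cells and from RiboTag input and bound fractions, and ATAC-seq from GFP-positive cells, in 26 groups of 2 samples. Per the submitters' processing notes, the authors used Salmon 0.10.2, kallisto 0.44.0, Bowtie2 2.3.2, MACS2 2.1.1.20160309, Picard and deepTools with the GRCm38 (mm10) build. RNA of sorted cells was amplified before sequencing. The deposited Salmon files, made by the authors, hold estimated counts (expected counts) and TPM for each Ensembl transcript. Each deposited peak list, made by the authors for 1 sample with MACS2, holds a fold enrichment (a ratio) and −log10 q-values for each region.

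Estimated counts and TPM were summed per gene with the Ensembl 92 identifiers of GENCODE release 21, and the counts were rounded. edgeR 4.0.16 (R 4.3.3; TMM, filterByExpr, quasi-likelihood F test, Benjamini-Hochberg adjustment over all genes) was fitted with 1 mean per group over the libraries of a kind: 12 GFP-positive, 12 GFP-negative, 24 sorted, 16 RiboTag, 8 bound or 8 input. These fits tested 34, 44, 46, 29, 20 and 17 of the 58 members. The study's own test, EBSeq, was not run. The script was tested on simulated counts. The study's methods call the 2 samples of a group biological replicates, with separate pools of mice for the pituitary.

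The members, the lists and the tests were chosen with earlier results of these data known. Members are named by 4 rules: a call with 1 TPM in both libraries of the higher group, the 3 highest TPM of a group, the atypical receptors with Cxcl12 and Cxcr4, and partners of named members. Values of 1 member that these rules name are not reported here; counts of members include it. CPM are scaled by TMM within the sorted and within the RiboTag libraries and are not compared across them. A fold against 0 uses a floor of 3 counts over the group, and intervals (95%, exact) and floors cover counting error only. Peak depth is unknown. Promoters come from RefSeq and genomic windows from GRCm38.p6. Alternatives were DESeq2 1.42.0, RLE scaling, no low-count filter, a gene-length offset, fits restricted to the compared groups, a replicate block, leaving out each library and stricter or wider peak rules. The replicate numbers were checked as pairs by the correlation of their deviations.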

Additional observations from a re-analysis of the deposited data

Results flagged for a closer look

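Cxcl12 was singled out because its response to stabilization on ribosomes differed between choroid plexus and cortex by 2.92 on the log2 scale (edgeR interaction test, adjusted p = 0.0243).

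A further 5 members were flagged, in which every stabilized EC library lay on one side of WT in the cerebellum and on the opposite side in a pituitary lobe. These are not all the members with that pattern. Cxcl16, for example, lay below WT in the cerebellum and above it in the anterior lobe, and was not flagged. The differences of the flagged members were not tested. Each is given as the mean change in CPM (stabilized minus WT) of the lobe minus that of the cerebellum. Ackr1 differed by 13 CPM in the posterior lobe, Ackr3 by −150 CPM and Ccl25, a ligand of CCR9, by 11.2 CPM. Ccl25 read 16.6 and 5.38 CPM in WT and 2.60 and 2.45 CPM in stabilized cerebellar ECs, and 2.97 and 2.58 CPM and 3.50 and 7.57 CPM in the posterior lobe. Ccl6 differed by 7.08 CPM in the anterior and 11.8 CPM in the posterior lobe, and Cxcl10 by 8.51 and 17.4 CPM. Cxcl12 itself differed by 1219 CPM between the anterior lobe and the cerebellum, and its cerebellar change was not called.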

How the results depend on the processing

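Values are counts of members called. Across all 21 comparisons, the share of all genes called was 0.802% to 34.9% with DESeq2, 0.924% to 21% without a filter, 0% to 20.6% with the length offset, 0% to 32.5% with only the groups compared, 0% to 27.5% with a replicate block and 0% to 25.4% leaving out 1 library. With DESeq2 in place of edgeR, stabilization called 5 in cerebellar, 6 in anterior and 8 in posterior pituitary ECs (4.34%, 2.79% and 6.61% of all genes). In GFP-negative cells of these tissues it called 3, 3 and 8 in the same order (4.87%, 1.46% and 4.18%). DESeq2 called 10, 10 and 8 between GFP-positive and GFP-negative cells (18.4%, 20.1% and 24% of all genes), and 7, 3 and 4 between WT ECs of cerebellum and anterior pituitary, cerebellum and posterior pituitary, and the 2 lobes (10.2%, 9.75% and 5.76%). It called 2 between choroid plexus bound and input (18.2%), 1 and 2 with stabilization in cortex and choroid plexus bound RNA (10.9% and 3.7%), and 1 in cortical input (12.7%). For the response of the 2 lobes it called 1 (2.48%), and for that of choroid plexus and cortex 2 (6.58%).

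Without a filter on low counts the counts were 4, 6 and 7 for stabilized ECs (2.25%, 1.75% and 3.76% of all genes). They were 8 and 8 for GFP-positive against GFP-negative anterior and posterior cells (11.4% and 13.4%). Between WT ECs they were 7, 3 and 4 (5.91%, 5.5% and 2.92%), and for stabilized posterior GFP-negative cells 3 (2.06%). They were 2 for choroid plexus bound against input (12%) and 1 and 2 for stabilized bound RNA of cortex and choroid plexus (8.11% and 3.32%). For stabilized inputs of these tissues they were 1 and 2 (9.32% and 1.54%). For the responses of the lobes and of the RiboTag tissues they were 1 and 2 (1.61% and 5.2%). With a gene-length offset they were 0 for stabilized anterior ECs (0.324%) and 3 and 2 for GFP-positive against GFP-negative cerebellar and anterior cells (7.09% and 7.2%). They were 0 for stabilized cerebellar GFP-negative cells (0.316%), 0 for choroid plexus bound against input (12.4%), and 1 and 0 for stabilized inputs (17.6% and 0%). Fitting only the groups compared gave 2 for stabilized anterior ECs (0.531%), 2 for GFP-positive against GFP-negative anterior cells (15.1%) and 2 for cerebellar against anterior ECs (5.86%). It gave 0 for stabilized cerebellar GFP-negative cells (0%), and 3 and 3 for bound against input of cortex and choroid plexus (7.34% and 23.2%). RLE scaling kept all 21 counts within 1.5 times, and moved the median of all genes by over 0.1 in 2 comparisons (0.116 and 0.104). The cause of these differences was not tested.

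Leaving out 1 library at a time gave 0 to 1, 0 to 1 and 0 to 3 for stabilized ECs, 2 to 3, 1 to 2 and 2 to 5 for GFP-positive against GFP-negative cells, and 0 to 1 and 0 to 2 for stabilized GFP-negative cells of the cerebellum and posterior pituitary. It gave 3 to 7 and 1 to 2 for bound against input, 0 to 1 for stabilized choroid plexus bound RNA, 0 to 2 for stabilized cortical input, 0 in each fit for stabilized choroid plexus input, and 0 to 1 for both responses. No called change of a member was reversed in the alternatives run for it; changes that were not called were not followed by member.

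With a replicate block the counts were 1 for stabilized cerebellar ECs (0.737% of all genes) and 1 for cerebellar against posterior ECs (4.72%). They were 1 for stabilized posterior GFP-negative cells (0.393%) and 0 for stabilized choroid plexus input (0%), and within 1.5 times elsewhere. Deviations of samples with the same number correlated between −0.04 and 0.09, except at −0.21 for choroid plexus input, so that the numbers were not used as pairs. RiboTag inputs were set aside from the tissue homogenates before the pull-down, but whether a number marks the same homogenate is not given in the sources used here. The block lost the cortical bound against input calls of Ackr3 and Ccl27a, those of Ccl2 and Ccl4 between cerebellar fractions and of Ccl4 between anterior ones, and that of Cxcl12 in stabilized choroid plexus input (adjusted p 0.0659, 0.0584, 0.0919, 0.0665, 0.0625 and 0.107), and no other call of a member. A replicate block with crossed numbers, chosen after seeing the data, called 0 there. Stricter peaks left 4 members open in both WT cerebellar libraries, and counting either library gave 18 in stabilized posterior ECs, or 10 to 17 with 1 library alone. The 2 libraries of a group limit every test, and at the lowest depths a level under about 1 CPM rests on few reads.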
